A study of Mus musculus with 14 samples.

Results

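The nuclear-encoded genes of oxidative phosphorylation (OXPHOS) were examined in kidney RNA of 14 male C57BL/6J mice. Members were taken by name from the 21878 genes in the files: genes named as subunits of complex I (Nduf followed by a, b, c, s, or v and a number), complex II (Sdha to Sdhd), complex III (Uqcr and Cyc1), cytochrome c oxidase or complex IV (Cox4 to Cox8), and ATP synthase or complex V (Atp5), leaving out assembly factors. Of 85 matching names, 81 reached at least 1 FPKM (fragments scaled by transcript length and sequencing depth) in at least 3 mice and are the members. They comprise 37 genes of complex I, 4 of complex II, 9 of complex III, 14 of complex IV, and 17 of complex V.

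There were 3 WT control mice, 4 WT diabetic mice, and, with Cfb knocked out, 3 control and 4 diabetic mice. Cfb encodes complement factor B, a protease of the alternative complement pathway. Diabetic mice of both genotypes received a high-fat diet (HFD; 60% of calories from fat), for 4 weeks before streptozotocin (STZ) according to the labels, and STZ in citrate buffer at 60 mg/kg on 5 days in a row. STZ destroys insulin-producing beta cells. Control mice of both genotypes received chow with 10% of calories from fat and buffer alone. A time of 34 weeks is given for all mice, which by the study's methods were 8 weeks old at the start and were killed 21 weeks after STZ. The labels call the knockout a knockdown, and their treatment entry for control mice names STZ/HFD as it does for diabetic mice. Groups were therefore taken from sample names, in which diet and disease labels also differ. In the files, Cfb ranged from 1.13 to 2.22 FPKM in Cfb-/- mice and from 56.7 to 131 FPKM in WT mice, so no mouse went against its genotype label.

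OXPHOS passes electrons from NADH (complex I) and succinate (complex II) through complexes III and IV to oxygen, and the proton gradient formed on the way drives ATP synthesis in complex V. In the kidney, the proximal tubule is especially rich in mitochondria and depends on this pathway for solute reabsorption. Complexes I, III, IV, and V also hold subunits encoded in mitochondrial DNA, which were not analysed here. Complexes are assigned by gene name. Ndufa4 is now regarded as a subunit of complex IV despite its name, Cox7a2l acts in supercomplex assembly, and the names of Atp5s and Atp5sl do not mark them as core subunits of ATP synthase.

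Some facts about all genes bear on the results. WT control mouse 2 stood apart, with a summed FPKM over all genes of 488196, against 330246 to 427297 in the other 13 mice. Each comparison with WT control mice is therefore also given without it where that matters. Across all genes, the fold changes varied with transcript length, as described further on. The 14 markers of the proximal tubule summed to between 8447 and 18630 FPKM in diabetic mice and to between 45005 and 74605 FPKM in control mice, most of it from the single gene Kap. Without Kap, the other 13, among them the endocytic receptor Lrp2 and the transporters Slc34a1 and Slc5a2, summed to between 1776 and 3035 FPKM in diabetic and to between 4985 and 7309 FPKM in control mice. In kidney tissue, fewer cells of a type and less RNA per cell cannot be told apart. With 14912 genes tested by limma on log2(FPKM + 0.1) and Benjamini-Hochberg adjustment over all of them, a gene was called at an adjusted p under 0.05. Fold changes are on this scale and are understated for genes near the added 0.1.

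The members were among the most abundant transcripts of the kidney. Of the 81 members, 80 were at or above 1 FPKM in all 14 mice, 68 had a mean over 100 FPKM, and only 4 had a mean under 10 FPKM, namely Ndufa4l2, Atp5s, Cox6b2, and Cox8b. The most abundant member by name in complex I was Ndufa4 (mean 957 FPKM over 14 mice), in complex II the membrane anchor Sdhc (314 FPKM), in complex III the hinge protein gene Uqcrh (493 FPKM), in complex IV Cox8a (1206 FPKM), and in complex V the catalytic beta subunit gene Atp5b (1339 FPKM). Their transcripts were short. The median length was 775.5 bases for members and 2808 bases for the tested genes.

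Summed over members, the level was 25639, 39635, and 32159 FPKM in WT control mice 1 to 3, and 24325, 29198, and 25143 FPKM in Cfb-/- control mice. In WT diabetic mice it was 22869, 26497, 25305, and 28866 FPKM, and in Cfb-/- diabetic mice 24262, 23784, 23108, and 23884 FPKM. All Cfb-/- diabetic mice were below all control mice by a small margin, whereas WT diabetic mice overlapped WT control mouse 1. The mean was 32478 ± 7003 FPKM (SD, n = 3) in WT control and 25884 ± 2496 FPKM (SD, n = 4) in WT diabetic mice, a ratio of 0.797. It was 26222 ± 2610 FPKM (SD, n = 3) in Cfb-/- control and 23760 ± 481 FPKM (SD, n = 4) in Cfb-/- diabetic mice, a ratio of 0.906. As a share of the FPKM of all genes, the members held 6.52% to 8.12% in control mice and 6.92% to 7.91% in diabetic mice, and these ranges overlapped. The total itself moved with diabetes: Kap, an androgen-regulated proximal tubule transcript, held 10.2% to 13.9% of it in control mice and 1.98% to 4.6% in diabetic mice.

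**Figure D1:**
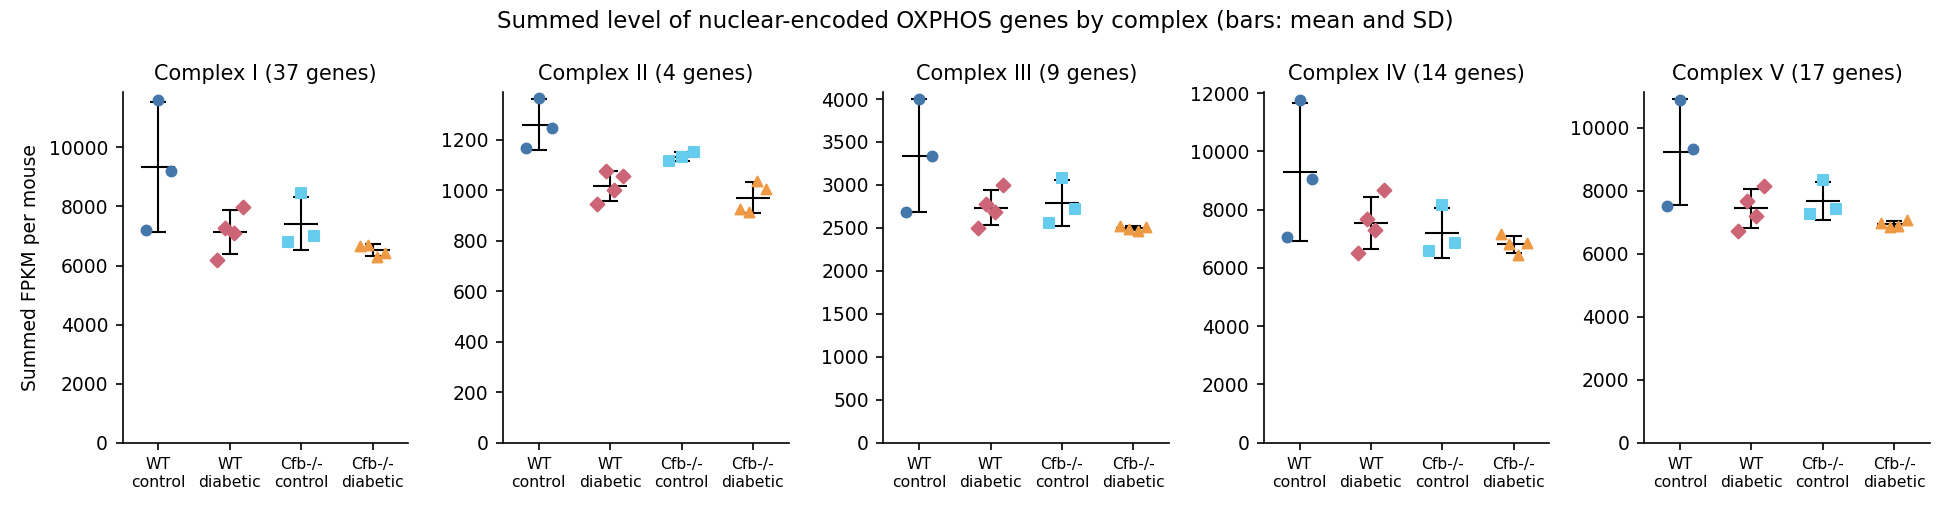
Summed FPKM of the members of each complex in each mouse, on axes that start at 0, with points for mice and bars for the mean and SD of the 4 groups. WT control mouse 2 is the highest point in all 5 complexes, and the groups are separated most clearly in complex II, where the 8 diabetic mice lie between 915 and 1076 FPKM and the 6 control mice between 1116 and 1367 FPKM.

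In WT mice, diabetes came with lower levels of some members of complexes I, II, III, and V. Of 81 members, 22 were called lower and 2 higher, beside 9.97% of all tested genes called lower and 36.2% called higher. The 2 were Cox6b2 and Cox8b. Without WT diabetic mice, Cox8b would not have reached 1 FPKM in 3 mice, so its call is no independent test. The count called higher was 1 without WT diabetic mouse 3 or WT control mouse 2 or 3. By complex, 13 of 37 members were called lower in complex I, 2 of 4 in complex II, 2 of 9 in complex III, 0 of 14 in complex IV, and 5 of 17 in complex V. At an unadjusted p under 0.05, 33 members were lower, 1 of them in complex IV, beside 12.2% of all tested genes. The median log2 fold change was -0.28 over members and 0.29 over all tested genes. The count of members called lower depended on single control mice: it was 4 (4.94%) without WT control mouse 2, beside 7.11% of all tested genes, 10 (12.3%) without WT control mouse 3, beside 7.52%, and 60 (74.1%) without WT control mouse 1, beside 12.3%. Of the 60, 9 were in complex IV. Without WT control mouse 2 the share of members called lower was thus below that of all genes. Without WT diabetic mouse 1 it was 10, without mouse 3 it was 12, and without mouse 2 it was 14. In 13 members (16%), each WT diabetic mouse was below each WT control mouse, beside 9.84% of all tested genes, and in 2 (Cox6b2 and Cox8b) each was above, beside 35.5%. For Cox8b this is no independent test either.

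Among Cfb-/- mice, 3 members were called lower with diabetes (Ndufb3, Ndufb4, and Sdhc) and 2 higher (Cox6b2 and Ndufa4l2), beside 6.4% and 27.4% of all tested genes. Leaving out 1 mouse lowered the count from 3 to 2 (without diabetic mouse 3 or 4 or control mouse 3), 1 (without diabetic mouse 1 or 2 or control mouse 1), or 0 (without control mouse 2). The median log2 fold change was -0.12 over members and 0.22 over all tested genes. In 19 members (23.5%), each diabetic mouse was below each control mouse, beside 8.64% of all tested genes, and in 2 (Cox6b2 and Ndufa4l2) each was above, beside 33.6%. The 3 members called lower were also among the 22 called lower in WT mice. These comparisons share no mouse, but all mice were fitted together, so both use the same variance estimate for each gene. Their calls are therefore not independent. How many of all tested genes were called lower in both genotypes is not given, so the 3 are not read as a result about the members.

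Whether the members as a group were lower depended on the scaling. Relative to the median of all tested genes, the members' median in WT mice differed by -0.57 at the deposited scaling, -0.59 after median-ratio scaling, and -0.22 after removal of the trend with transcript length, but by 0.05 after quantile normalization, which gives every mouse the same distribution of values. The same differences for Cfb-/- mice were -0.34, -0.36, -0.20, and 0.07. The median of all tested genes itself moved from 0.29 at the deposited scaling to between -0.05 and 0.03 after these scalings in WT mice, and from 0.22 to between -0.05 and -0.01 in Cfb-/- mice. The number of members called lower in WT mice was 60 after median-ratio scaling, 37 after length-trend removal, and 7 after quantile normalization, beside 22.5%, 22.5%, and 20.1% of all genes tested under each. These counts for Cfb-/- mice were 17, 39, and 2, beside 14.1%, 18.3%, and 14.9%.

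After length-trend removal, the comparisons of both genotypes came closer. The median over members was -0.24 in both, 29 members were called lower in both, 8 in WT mice alone, and 10 in Cfb-/- mice alone. Of all tested genes, 22.5% were called lower in WT and 18.3% in Cfb-/- mice. The share called lower in both is not given, so the 29 are not read as a result about the members. By complex, 20 members of complex I were called lower in WT and 21 in Cfb-/- mice. The counts were 3 and 3 for complex II, 3 and 6 for complex III, 1 and 1 for complex IV, and 10 and 8 for complex V. In complex IV the medians were -0.08 in WT and -0.10 in Cfb-/- mice, and in complex II they were -0.47 and -0.48. Whether complexes differed from each other was not tested, since their members are not replicates. This removal was chosen after the trend had been seen.

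**Figure D2:**
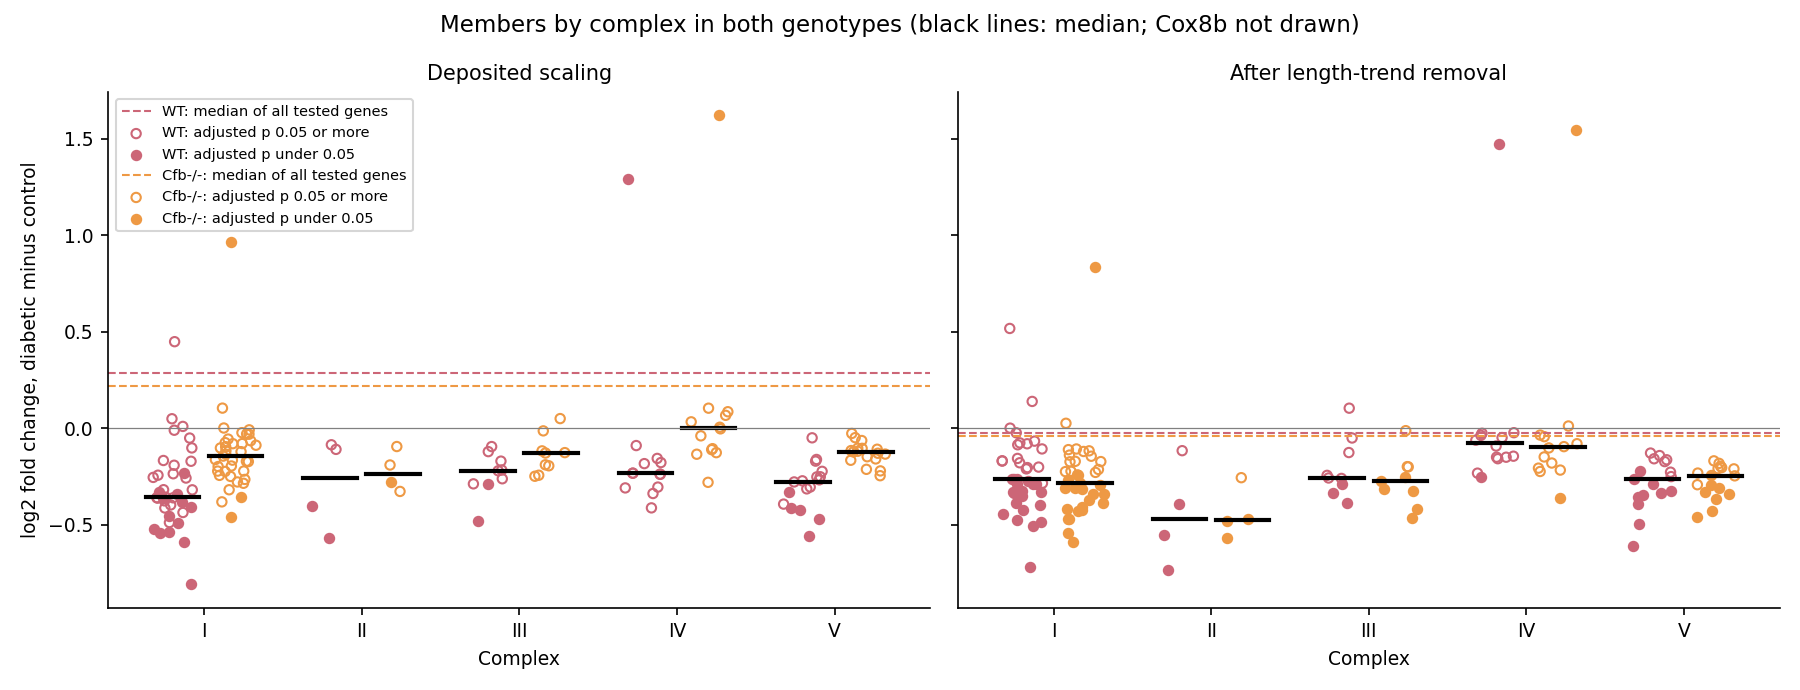
Log2 fold change (diabetic minus control) of each member except Cox8b by complex, in WT and Cfb-/- mice, with filled points for an adjusted p under 0.05, black lines for the median of each complex, and dashed lines for the median of all tested genes. At the deposited scaling the median of each complex is lower in WT than in Cfb-/- mice (in complex II by the least, -0.26 against -0.24), and after length-trend removal the medians of both genotypes lie within 0.1 of each other in each complex.

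Complex I members called lower were led in WT mice by Ndufa12, an accessory subunit. Its levels were 198, 332, and 214 FPKM in WT control mice, against 97.7, 190, 158, and 122 FPKM with diabetes, so that the groups did not overlap. Diabetes gave a log2 fold change of -0.81 (SE 0.23, limma adjusted p = 0.010), which was not called without WT control mouse 2. For Cfb-/- mice, 154, 240, and 168 FPKM in control and 190, 202, 176, and 170 FPKM in diabetic mice overlapped, with a log2 fold change of 0.00 (SE 0.23, limma adjusted p = 0.999). The interaction of genotype with diabetes was 0.81 (SE 0.32), with a limma adjusted p = 0.779 (0.023 before adjustment), so a difference between genotypes did not pass the test. Ndufa12 lies at chr10:94199035-94221440 (GRCm38.p6).

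Ndufb4, an accessory subunit of the membrane arm, was called lower in both genotypes. It was measured at 308, 468, and 354 FPKM in WT control and at 230, 254, 255, and 279 FPKM in WT diabetic mice, and at 274, 351, and 305 FPKM in Cfb-/- control and at 223, 221, 224, and 230 FPKM in Cfb-/- diabetic mice. Neither pair of groups overlapped. On the log2 scale the change was -0.54 (SE 0.13, limma adjusted p = 0.0048) in WT and -0.46 (SE 0.13, limma adjusted p = 0.016) in Cfb-/- mice. Among Cfb-/- mice, Ndufb4 was not called without control mouse 2, and its log2 fold change ranged from -0.54 to -0.36 over all mice left out. Ndufb3, another accessory subunit of that arm, had log2 fold changes of -0.46 (SE 0.13, limma adjusted p = 0.010) and -0.36 (SE 0.13, limma adjusted p = 0.043). Its groups did not overlap in Cfb-/- mice (122 to 153 FPKM in control, 101 to 110 FPKM in diabetic mice), whereas in WT mice 1 diabetic mouse at 146 FPKM was above WT control mouse 1 at 143 FPKM. Ndufb3 was not called in WT mice without WT control mouse 2, and among Cfb-/- mice it kept its call without control mouse 3 alone.

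Sequences before the transcription start are shown for the members called in the same direction in both genotypes that matched a promoter in RefSeq (GRCm38.p6). These are Ndufb3 and Ndufb4, which were lower, and Cox6b2, which was higher. Only the bases that no GENCODE vM21 exon overlaps are printed, from the 250 bases before the RefSeq start, on the strand of the gene. Capitals mark a match to the motif of nuclear respiratory factor 1 (NRF1), spelled GCGC, any base, TGCGC, here on the opposite strand. The Ndufb4 stretch ends 85 bases and the Ndufb3 stretch 13 bases before the RefSeq start. Sdhc, also lower in both, is named only.
Ndufb4, chr16:37654454-37654618, minus strand: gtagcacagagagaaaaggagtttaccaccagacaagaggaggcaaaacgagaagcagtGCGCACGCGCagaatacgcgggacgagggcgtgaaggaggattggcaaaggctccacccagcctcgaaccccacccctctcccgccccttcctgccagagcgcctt
Ndufb3, chr1:58586324-58586383, plus strand: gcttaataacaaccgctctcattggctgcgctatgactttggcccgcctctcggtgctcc
Cox6b2, chr7:4753095-4753225, minus strand: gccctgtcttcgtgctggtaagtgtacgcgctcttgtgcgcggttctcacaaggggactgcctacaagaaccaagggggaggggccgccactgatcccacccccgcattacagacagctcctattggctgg

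In the whole window of 250 bases, Ndufb4 held 3 matches, of which 1 lies in the printed stretch, and Ndufb3 and Cox6b2 held none of the motifs searched. The motifs were searched on both strands. Of 68 members with a RefSeq promoter, 13 (19.1%) held the NRF1 motif in this window, beside 8.21% of 11791 tested genes and 4.23% of 27025 genes with a promoter. CCGGAAG, the core of sites bound by ETS factors such as GABP, was found in 12 members (17.6%), beside 13.8% of tested genes and 7.83% of all. TCAAGG followed by TCA, the extended half-site of estrogen-related receptors, was found in 1 member (1.47%), beside 0.314% of tested genes, and TATAAA in 5 (7.35%), beside 8.82% of tested genes. Of the 21 members called lower in WT mice that had a promoter, 2 held the NRF1 motif. A match says that these letters are present, not that a factor binds there.

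The remaining complex I members called lower in WT mice included Ndufs8 and Ndufs7, which carry iron-sulfur clusters in the arm that passes electrons to ubiquinone, Ndufv1 with the flavin site that takes electrons from NADH, and Ndufv3. Ndufs8 was at 113, 199, and 148 FPKM in WT control and at 89.2, 99.3, 98.3, and 111 FPKM in WT diabetic mice, with a log2 fold change of -0.59 (SE 0.15, limma adjusted p = 0.0069). These groups did not overlap. The values in Cfb-/- mice were 101 to 121 FPKM in control and 87.3 to 104 FPKM in diabetic mice, with a log2 fold change of -0.17 (SE 0.15, limma adjusted p = 0.412). Ndufa4 had log2 fold changes of -0.54 (SE 0.16, limma adjusted p = 0.016) in WT and -0.38 (SE 0.16, limma adjusted p = 0.086) in Cfb-/- mice. At the other end, Ndufs1, the largest subunit of complex I, had log2 fold changes of -0.01 (limma adjusted p = 0.959) and -0.28 (limma adjusted p = 0.176), and it has one of the longest member transcripts (2661 bases).

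In complex II, which is also the succinate dehydrogenase of the TCA cycle, the iron-sulfur subunit Sdhb was at 264, 405, and 346 FPKM in WT control and at 204, 221, 231, and 243 FPKM in WT diabetic mice. Its log2 fold change was -0.57 (SE 0.13, limma adjusted p = 0.0026) in WT and -0.33 (SE 0.13, limma adjusted p = 0.058) in Cfb-/- mice. Among Cfb-/- mice, 253, 285, and 253 FPKM in control stood above 206, 205, 212, and 216 FPKM in diabetic mice. Sdhc was called lower in both genotypes, at 358, 419, and 362 against 267, 297, 283, and 301 FPKM in WT mice (log2 fold change -0.40, SE 0.09, limma adjusted p = 0.0033) and at 333, 345, and 328 against 264, 272, 292, and 277 FPKM in Cfb-/- mice (-0.28, SE 0.09, limma adjusted p = 0.030). Sdhb and Sdhc thus did not overlap between diabetic and control mice in either genotype. The flavoprotein Sdha had log2 fold changes of -0.09 (limma adjusted p = 0.571) in WT and -0.19 (limma adjusted p = 0.237) in Cfb-/- mice, and Sdhd had -0.11 (limma adjusted p = 0.377) and -0.10 (limma adjusted p = 0.487). After length-trend removal, Sdha was called lower in both genotypes (-0.39 and -0.47), beside 22.5% and 18.3% of all tested genes. Without WT control mouse 2, 2 of 4 members of complex II were still called lower in WT mice. Sdhc lost its call among Cfb-/- mice without any 1 mouse other than diabetic mouse 3, with log2 fold changes between -0.31 and -0.26. The lowest p that an exact permutation test can give for 4 mice against 3 is 0.0571. Among the members tested this way, Sdhb, Sdhc, Ndufb4, and Ndufa4, which were lower, and Cox6b2, which was higher, reached it in both genotypes. This p is reached whenever the groups do not overlap. Of all tested genes, 9.84% were lower and 35.5% higher without overlap in WT mice. In Cfb-/- mice these shares were 8.64% and 33.6%. Many members tested this way were named for their change in these data, so reaching this p is no independent support.

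In complex III, Uqcr11 (log2 fold change -0.48, SE 0.17, limma adjusted p = 0.035) and the core protein Uqcrc1 (-0.29, SE 0.10, limma adjusted p = 0.032) were called lower in WT mice. Uqcr11 was at 423, 793, and 612 FPKM in WT control and at 412, 398, 408, and 472 FPKM in WT diabetic mice, so WT control mouse 1 lay inside the diabetic range. Their log2 fold changes in Cfb-/- mice were -0.19 (limma adjusted p = 0.426) and -0.13 (limma adjusted p = 0.349). Neither was called in WT mice without WT control mouse 2 or 3 (-0.27 and -0.19 without mouse 2) or without WT diabetic mouse 1 or 3, nor was Uqcr11 without WT diabetic mouse 2. The second core protein, Uqcrc2, had the smallest log2 fold change of complex III in Cfb-/- mice (-0.25, limma adjusted p = 0.097), and cytochrome c1 (Cyc1) had -0.26 (limma adjusted p = 0.068) in WT and -0.13 (limma adjusted p = 0.408) in Cfb-/- mice. Uqcr10 had the largest values, -0.10 (limma adjusted p = 0.743) and 0.05 (limma adjusted p = 0.884).

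In complex IV, no subunit passed the test as lower at the deposited scaling in either genotype with all mice. Before adjustment, 1 WT member had a p under 0.05 with a lower level, Cox8a, at 1145, 2036, and 1411 FPKM in WT control and 942, 1104, 1138, and 1314 FPKM in WT diabetic mice (log2 fold change -0.41, SE 0.18, limma adjusted p = 0.077). Cox7c had the smallest log2 fold change in Cfb-/- mice (-0.28, SE 0.15, limma adjusted p = 0.178). Cox5b was at 0.08 in Cfb-/- and -0.23 in WT mice (limma adjusted p = 0.723 and 0.260). After length-trend removal, Cox8a was called lower in WT mice (-0.25, limma adjusted p = 0.041) and Cox7c in Cfb-/- mice (-0.36, limma adjusted p = 0.022). After median-ratio scaling, 5 of 14 members were called lower in WT mice and 0 in Cfb-/- mice.

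In complex V, the members called lower in WT mice were Atp5e (log2 fold change -0.56, SE 0.21, limma adjusted p = 0.041), Atp5sl, Atp5j, Atp5d, and Atp5g2. Atp5d and Atp5e encode the delta and epsilon subunits of the central stalk and Atp5g2 one of the copies of the c ring subunit. Atp5e was at 562, 1141, and 885 FPKM in WT control and at 489, 542, 532, and 708 FPKM in WT diabetic mice, and 1 diabetic mouse was above WT control mouse 1. Without WT control mouse 2 or 3 or WT diabetic mouse 1, 2, or 3, Atp5e was not called (from -0.84 to -0.33 over all mice left out). Of all 17 members of complex V, 0 were called lower without WT control mouse 2 or 3, beside 7.11% and 7.52% of all tested genes. Without WT control mouse 1, 13 were called lower, beside 12.3%. At the deposited scaling, Atp5b and Atp5a1 were not called. Atp5b had log2 fold changes of -0.25 (SE 0.13, limma adjusted p = 0.111) in WT and -0.21 (SE 0.13, limma adjusted p = 0.209) in Cfb-/- mice, and Atp5a1 had -0.05 (limma adjusted p = 0.728) and -0.12 (limma adjusted p = 0.440). The 3 genes of the c ring, Atp5g1, Atp5g2, and Atp5g3, encode the same mature peptide and had log2 fold changes of -0.22, -0.33, and -0.27 in WT mice, of which only Atp5g2 passed the test (limma adjusted p = 0.040). After length-trend removal, Atp5b (-0.39 in WT and -0.43 in Cfb-/- mice) and Atp5a1 (-0.29 and -0.37) were called lower in both genotypes. Beside these, 22.5% and 18.3% of all tested genes were called lower.

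**Figure D3:**
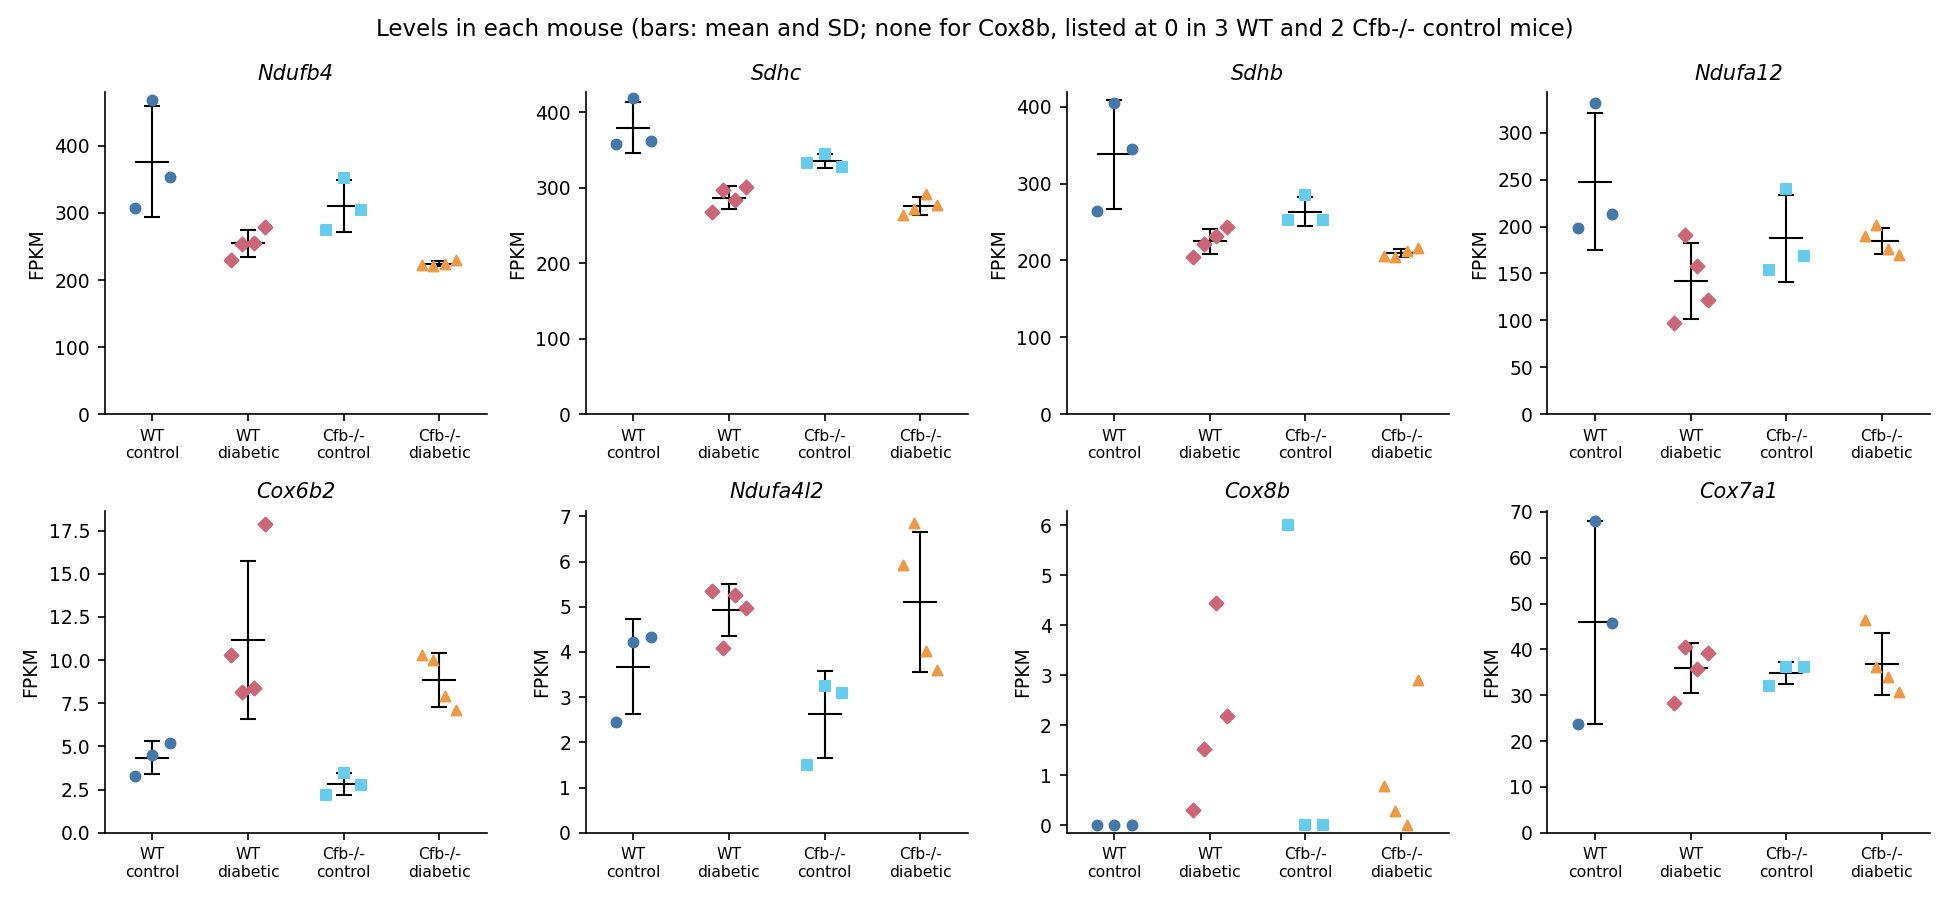
FPKM in each mouse for 8 members, on linear axes, with bars for the mean and SD except for Cox8b. Ndufb4, Sdhc, and Sdhb are lower and Cox6b2 is higher in all diabetic mice than in the control mice of the same genotype, whereas Ndufa12 is separated in WT mice alone and Cox7a1 overlaps in both genotypes.

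A few members with restricted expression went the other way. Cox6b2, a complex IV subunit isoform known from testis, was at 3.29, 4.53, and 5.19 FPKM in WT control and at 10.3, 8.14, 8.38, and 17.9 FPKM in WT diabetic mice. It was at 2.21, 3.46, and 2.78 FPKM in Cfb-/- control and at 10.3, 9.99, 7.91, and 7.10 FPKM in Cfb-/- diabetic mice. All 8 diabetic mice were above all 6 control mice. The increase on the log2 scale was 1.29 (SE 0.25, limma adjusted p = 0.0012), a fold of 2.45, in WT mice, and 1.62 (SE 0.25, limma adjusted p = 0.00025), a fold of 3.07, in Cfb-/- mice. As a share of the FPKM of Cox6b1, the widely expressed isoform, and Cox6b2 together, it made up 0.287% to 0.493% in control and 0.888% to 1.72% in diabetic mice. It was called higher in both genotypes after median-ratio scaling, quantile normalization, and length-trend removal. Cox6b2 lies at chr7:4751792-4753094 (GRCm38.p6), downstream of Fam71e2 on the same strand, which was listed at 0 in 13 mice and at 0.013 FPKM in the other one.

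Ndufa4l2, a relative of Ndufa4 known as a target of hypoxia-inducible factor, was at 1.5, 3.25, and 3.10 FPKM in Cfb-/- control and at 5.92, 6.86, 4.02, and 3.61 FPKM in Cfb-/- diabetic mice, without overlap. Its log2 fold change was 0.96 (SE 0.28, limma adjusted p = 0.017), and it was not called without Cfb-/- diabetic mouse 1 or 2 or control mouse 1 (0.62 to 1.15 over all mice left out), after median-ratio scaling, or after quantile normalization. In WT mice, 2.46, 4.22, and 4.34 FPKM in control and 5.36, 4.10, 5.26, and 4.98 FPKM in diabetic mice overlapped, with a log2 fold change of 0.45 (SE 0.28, limma adjusted p = 0.205). The interaction was 0.52 (SE 0.40, limma adjusted p = 0.783), and the genotypes were not shown to differ.

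Cox8b, a muscle and brown fat isoform, was the member nearest the expression limit, with at least 1 FPKM in 5 mice. WT diabetic mice had 0.30, 1.53, 4.45, and 2.19 FPKM, whereas each WT control mouse was listed at 0. Since 3 of the 5 mice were WT diabetic mice, the difference is given with no test. Among Cfb-/- mice it was at 5.99, 0, and 0 FPKM in control and at 0.79, 0.28, 0, and 2.91 FPKM in diabetic mice, which overlapped. Fat cell markers moved with it. The 5 white adipocyte markers, Adipoq, Plin1, Cidec, Lep, and Cfd, summed to 7.02 to 30.7 FPKM in WT diabetic and to 0 to 0.145 FPKM in WT control mice, and to 9.44 FPKM in the Cfb-/- control mouse with 5.99 FPKM of Cox8b. The 4 other brown adipocyte markers, Ucp1, Cidea, Elovl3, and Dio2, summed to 0.220 to 1.38 FPKM in WT diabetic and to 0.0908 to 0.175 FPKM in WT control mice, with Elovl3 at 0 in all of these mice, and to 6.82 FPKM in that Cfb-/- control mouse. In Cfb-/- diabetic mouse 4, with 2.91 FPKM of Cox8b, they summed to 0.304 FPKM and the white adipocyte markers to 0.102 FPKM. The part of fat tissue in the level of Cox8b was not tested.

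Cox7a1, an isoform known from muscle, was not called. It was measured at 23.8 to 68.1 FPKM in the WT control group and at 28.3 to 46.4 FPKM in the diabetic groups (log2 fold change -0.24, limma adjusted p = 0.462 in WT mice, and 0.07, limma adjusted p = 0.866 in Cfb-/- mice). The 4 names below the limit of 1 FPKM are no members. The muscle isoform Cox6a2 came nearest, at 0.58, 0.83, and 0.44 FPKM in Cfb-/- control and 0.20, 0.21, 0.41, and 0.11 FPKM in Cfb-/- diabetic mice, which did not overlap (log2 fold change -1.15, SE 0.35, limma adjusted p = 0.020). In WT mice, where the groups overlapped, its log2 fold change was -0.25 (limma adjusted p = 0.569). The other 3 were Cox4i2 with 0.087 to 0.36 FPKM, Cox7b2, listed at 0 in 12 mice, and Cox8c, listed at 0 in all mice.

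The genotypes were compared to ask whether deletion of Cfb changed these genes. In diabetic mice, 0 of 81 members were called by limma in either direction, beside 0.00671% of tested genes called lower and 0% called higher. At an unadjusted p under 0.05, 1 member was lower and 0 were higher, beside 1.67% and 1.33% of all tested genes. The member was Ndufb3, at 101, 110, 103, and 109 FPKM in Cfb-/- diabetic and at 111, 127, 124, and 146 FPKM in WT diabetic mice (log2 fold change -0.26, SE 0.12, limma adjusted p = 1.0). Its groups did not overlap. In 4 members (Ndufb3, Ndufb4, Ndufv3, and Uqcrb) each Cfb-/- diabetic mouse was below each WT diabetic mouse, beside 0.885% of all tested genes, and in 0 each was above, beside 1.86%. The median over members was -0.11, beside 0.04 over all tested genes, and 77 of 81 members were below 0. Cox7a1 had the largest value of complex IV at 0.03, and Atp5j2 the smallest of complex V at -0.17 (both limma adjusted p = 1.0). Median-ratio scaling, quantile normalization, and length-trend removal also called 0 members.

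In control mice, 0 of 81 members were called by limma, beside 0.00671% of tested genes called lower and 0% called higher. At an unadjusted p under 0.05, 25 members were lower in Cfb-/- mice and 0 higher, beside 7.67% and 9.86% of all tested genes. That count of lower members was 60 without WT control mouse 1, 0 without mouse 2, and 5 without mouse 3. Beside these stood 1840, 547, and 701 of 14912 tested genes. In 6 members each Cfb-/- control mouse was below each WT control mouse, beside 7.12%, and in 0 each was above, beside 6.67%. The median over members was -0.29, beside 0.06 over all tested genes. The value depended on WT control mouse 2, without which it was -0.13. With all mice, it was -0.05 after length-trend removal and -0.05 after quantile normalization. After median-ratio scaling it was -0.38, beside -0.02 over all tested genes. Ndufs8 (-0.46, SE 0.16, limma adjusted p = 0.249) and Cox7a2l (-0.39, SE 0.13, limma adjusted p = 0.247) were lower by name before adjustment, and Ndufs1 had the largest value of complex I (0.23, limma adjusted p = 0.443). Without WT control mouse 1, 36 members (44.4%) were called lower, beside 5.14% of all tested genes, and 0 members were after length-trend removal without that mouse, beside 0.409%. For the interaction, 0 members were called by limma in either direction, beside 0% of tested genes, and Ndufa12 alone among members had an unadjusted p under 0.05, with a positive value, beside 2.86% of tested genes with a positive and 2.92% with a negative one. Both comparisons of genotype and the comparisons of diabetes share mice with each other, so their values are not independent.

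The change with transcript length was seen in all genes. In WT mice, the median log2 fold change of tested genes with diabetes went from -0.14 in transcripts of up to 600 bases to -0.14 from there to 1000 bases, 0.05 up to 2000, 0.27 up to 4000, and 0.49 above 4000 bases. Among Cfb-/- mice, it went from 0.09 to 0.09, 0.15, 0.23, and 0.27. Between genotypes in control mice, it went from -0.33 to -0.29, -0.13, 0.06, and 0.27. The members lay below the other genes of their length in each class in both comparisons of diabetes: in WT mice, at -0.31 against -0.05, -0.34 against -0.13, -0.23 against 0.06, and -0.13 against 0.27. For Cfb-/- mice, they were at -0.11 against 0.15, -0.12 against 0.10, -0.14 against 0.15, and -0.15 against 0.23. Between genotypes in control mice, the difference was smaller, at -0.35 against -0.32, -0.34 against -0.29, -0.20 against -0.13, and -0.09 against 0.06. Among the 78 members other than Cox6b2, Cox8b, and Ndufa4l2, the log2 fold change between genotypes in control mice correlated with log2 length with r = 0.61. Over all 81 members this r was 0.13. For the same 78 members, r was 0.32 for diabetes in WT mice, -0.16 for diabetes in Cfb-/- mice, and 0.19 between genotypes in diabetic mice. These values are a description across genes that were measured in the same libraries.

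**Figure D4:**
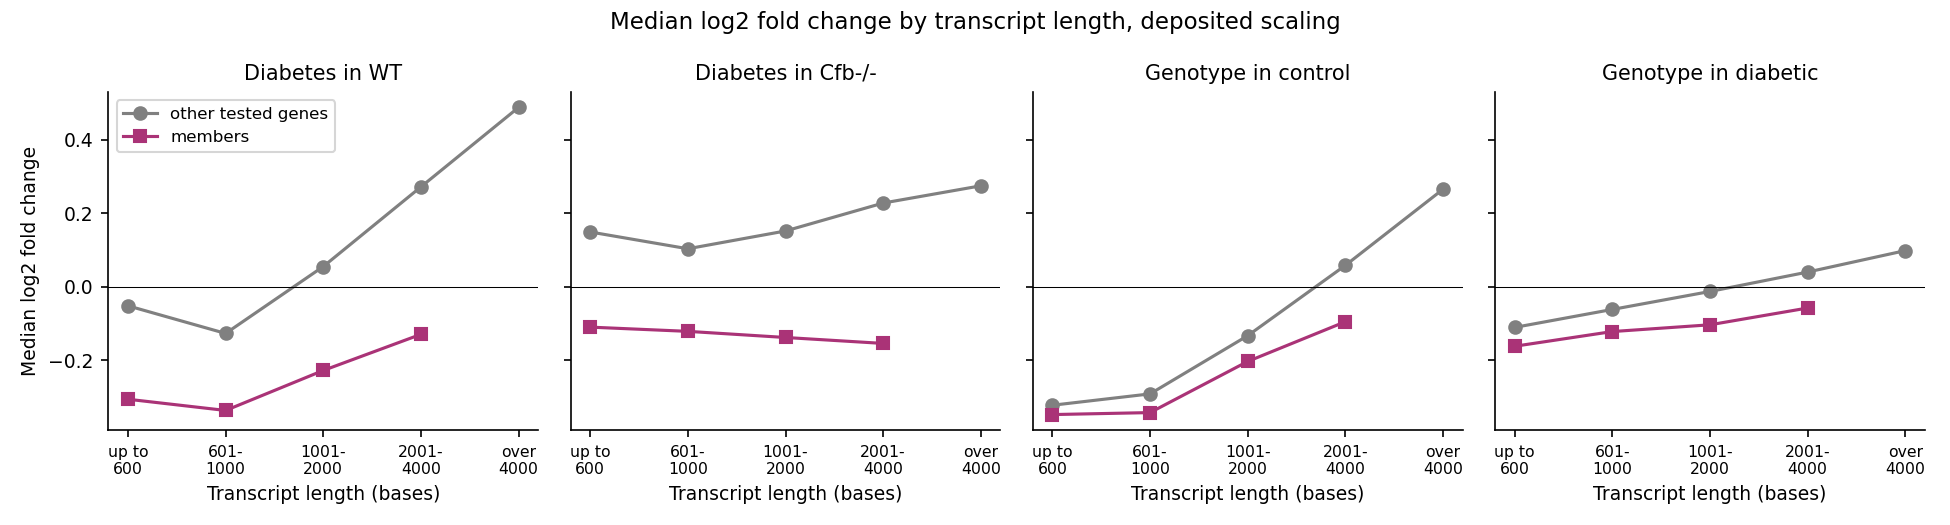
Median log2 fold change against transcript length class (in bases) at the deposited scaling for members and for the other tested genes, in 4 comparisons. In both comparisons of diabetes the members lie below the other genes in all 4 classes that hold members, and between genotypes in control mice both lines rise together from about -0.33 in the shortest class.

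The members varied together over mice. To the mean log2 level of all members, 51 of 81 members had a correlation over 0.9 across the 14 mice, and the median correlation between pairs of members was 0.81, or 0.72 after length-trend removal. Each member counts in that mean, which raises its correlation with it. No such values over all tested genes stand beside these, so they are not read as particular to the members. Only Ndufs1, Cox8b, Sdha, and Cox6b2 had values below 0. The genes outside the list with the highest correlation to this mean were Fis1 (0.974), which acts in mitochondrial fission, Cops6 (0.973), Mrps24 (0.971), 2410015M20Rik (0.968), and Lsm4 (0.968). These points share their libraries and groups, and 4 of these 5 genes have transcripts under 1000 bases.

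Other genes of the pathway were compared with the members. Of all tested genes, 9.97% were called lower and 36.2% higher in WT mice, and 6.4% and 27.4% in Cfb-/- mice. Of 46 assembly factors, which build the complexes but are not part of them, 13 were called lower and 3 higher in WT mice and 6 lower and 1 higher in Cfb-/- mice, with medians of -0.21 and -0.11. Of 77 mitochondrial ribosomal proteins, which translate the subunits encoded in mitochondrial DNA, 30 were called lower and 1 higher in WT mice and 6 lower and 0 higher in Cfb-/- mice, with medians of -0.25 and -0.12. Both lists had medians below 0 under each of the 4 scalings in both genotypes, including -0.32 for both in WT mice after quantile normalization, where the members stood at 0.00. Of 85 cytosolic ribosomal proteins, which are short and abundant like the members, 4 were called lower in WT mice and 1 in Cfb-/- mice, with medians of -0.19 and 0.13, and their direction changed with the scaling in both genotypes. Of 13 TCA cycle genes, 4 were called lower and 1 higher in WT mice and 3 lower in Cfb-/- mice, with medians of -0.15 and -0.16 that became 0.08 in WT mice after quantile normalization. Idh3g, Suclg2, Idh3b, and Mdh2 were the 4 lower in WT mice, and Idh3g, Suclg2, and Sucla2 the 3 in Cfb-/- mice. Of 21 genes of mitochondrial import and outer membrane channels, 3 (14.3%) were called lower in WT and 2 (9.52%) in Cfb-/- mice, beside 9.97% and 6.4% of all tested genes.

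Among the carriers that work beside the complexes, cytochrome c (Cycs), which moves electrons from complex III to IV, was called lower in both genotypes, at 65.3 to 81.2 FPKM in WT control against 45.0 to 61.7 FPKM in WT diabetic mice (log2 fold change -0.49, SE 0.13, limma adjusted p = 0.0070) and at 66.6 to 83.5 FPKM in Cfb-/- control against 40.7 to 52.5 FPKM in Cfb-/- diabetic mice (-0.63, SE 0.13, limma adjusted p = 0.0017). It was called lower in both genotypes under the other 3 scalings too. Ucp2, a carrier of the mitochondrial inner membrane that is also abundant in immune cells, was called higher in both genotypes, at 33.8 to 47.0 FPKM in WT control against 131 to 236 FPKM in WT diabetic mice (log2 fold change 2.01, SE 0.22) and at 35.8 to 59.9 FPKM in Cfb-/- control against 103 to 158 FPKM in Cfb-/- diabetic mice (1.46, SE 0.22), and under all 4 scalings. Macrophage markers moved with it: all 6 were called higher in WT and 5 in Cfb-/- mice, and their sum was 49.0 to 79.8 FPKM in control and 194 to 359 FPKM in diabetic mice. Their part in the level of Ucp2 was not tested.

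The 15 regulators of mitochondrial genes gave no direction that held under all scalings. At the deposited scaling, 5 (33.3%) were called higher and 1 lower in WT mice, beside 36.2% of all tested genes called higher, and 2 (13.3%) higher and 0 lower in Cfb-/- mice, beside 27.4%. After median-ratio scaling 3 (20%) were called lower in WT and 4 (26.7%) in Cfb-/- mice, beside 22.5% and 14.1% of all tested genes. After length-trend removal there were 6 (40.0%) and 5 (33.3%), beside 22.5% and 18.3%, and after quantile normalization 3 (20%) and 4 (26.7%), beside 20.1% and 14.9%, with 0 called higher in each of these. In WT mice the shares called lower lay near those of all genes except after length-trend removal. For these 3 scalings with all mice, the share of all tested genes called higher is not given. After length-trend removal without WT control mouse 1, 2, or 3, 0 regulators were called higher in WT mice each time. Beside these, 18.7%, 16.7%, or 17.5% of all tested genes were called higher. Ppargc1a, the coactivator PGC-1 alpha, had a log2 fold change of 0.49 (SE 0.18, limma adjusted p = 0.038) in WT mice at the deposited scaling, 0.21 after median-ratio scaling, and -0.05 after length-trend removal, and it was not called without WT control mouse 2 or 3 or WT diabetic mouse 1, 2, or 4. Its FPKM was 4.95, 2.82, and 4.14 in WT control and 5.92, 5.87, 4.77, and 5.39 in WT diabetic mice. Esrra, the estrogen-related receptor that works with PGC-1 alpha, was lower in WT mice under all 4 scalings, from -0.31 to -0.67, and was called each time, at 43.7, 49.8, and 53.5 FPKM in WT control and 35.6, 38.7, 36.7, and 38.2 FPKM in WT diabetic mice (deposited scaling: -0.39, SE 0.10, limma adjusted p = 0.0049). Among Cfb-/- mice it was at -0.19 (SE 0.10, limma adjusted p = 0.155). Pprc1, a relative of PGC-1 alpha, was called higher in both genotypes at the deposited scaling (0.71 in both, limma adjusted p = 0.0092 and 0.012) and under none of the other 3. Gabpb1 in both genotypes and Esrrb and Yy1 in WT mice were the other regulators called higher at the deposited scaling.

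**Figure D5:**
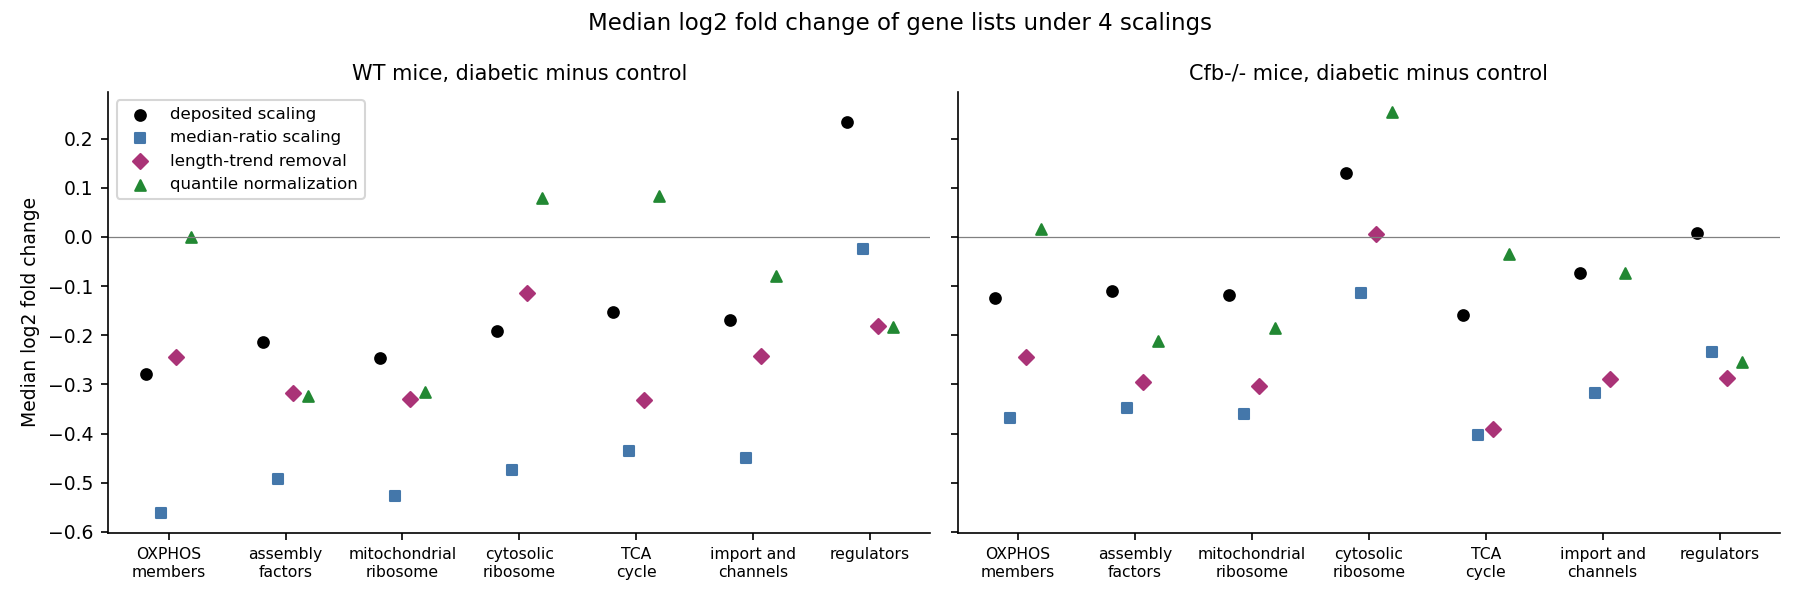
Median log2 fold change (diabetic minus control) of the members and of 6 other gene lists in WT and Cfb-/- mice, with 1 point for each of 4 scalings. The medians of assembly factors and mitochondrial ribosomal proteins lie below 0 under all 4 scalings, whereas those of the members reach 0.00 in WT and 0.02 in Cfb-/- mice after quantile normalization and those of the regulators range from -0.29 to 0.23.

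Other cells moved with diabetes beside these values. Of 14 proximal tubule markers, 10 were called lower in WT and 12 in Cfb-/- mice, with medians of -1.15 and -1.22. All 7 markers of injured tubule, including Havcr1 and Lcn2, were called higher in both genotypes, and their sum was 51.8 to 72.3 FPKM in control and 122 to 297 FPKM in diabetic mice. The part of these cell types in the levels of the members was not tested.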

How the data were processed

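Kidney RNA was sequenced from both ends after stranded mRNA library preparation (TruSeq). The authors deposited 1 FPKM value per gene and mouse; the unit was read from the values, and the submitters' processing notes name Trimmomatic, HISAT2, Cufflinks, HTSeq, DESeq, and GRCm38.p6, with no versions. FPKM are scaled by transcript length and depth, so a few very abundant genes shift all others. Absolute depth is unknown, and no interval is given. Samples under an RNA integrity limit were left out by the study.

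Genes with at least 0.1 FPKM in at least 3 of 14 mice (14912) were fitted together in R 4.3.3 with limma 3.58.1, with a mean per group and a mean-variance trend on log2(FPKM + 0.1). limma was tested on simulated data. Exact permutation tests were two-sided. Python 3.11.15, numpy 2.4.6, scipy 1.17.1, pandas 2.3.3, and matplotlib 3.10.9 were used. For length-trend removal, a lowess curve of each mouse's deviation from the gene mean on log2 transcript length (GENCODE vM21) was subtracted. Median-ratio scaling, quantile normalization, other pseudocounts and filters, a replicate block, and leaving out each mouse were alternatives.

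The members and lists were chosen with earlier results of these data known. Named were, per complex, the most abundant member and those with the largest and smallest change in each comparison, members called between genotypes or for the interaction, restricted isoforms, members nearest the 1 FPKM limit, regulators, and the 5 genes most like the members' mean. Other members named were chosen after their values were seen. Mice of a group are separate animals by label. None of the mitochondrial DNA-encoded genes was analysed here.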

Additional observations from a re-analysis of the deposited data

Results flagged for a closer look

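Of 70 groups of 4 mice examined (the summed levels of each complex and the named members), 3 held a mouse far from the other 3 by Dixon's ratio, and chance flags about 5% of such groups. Cyc1 was at 299 FPKM and Ndufa4 at 812 FPKM in Cfb-/- diabetic mouse 4, apart from the other Cfb-/- diabetic mice. Sdha was at 268 FPKM in WT diabetic mouse 2, above the other WT diabetic mice.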

How the results depend on the processing

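The members' results were recomputed under each alternative, of which length-trend removal, alone or together with the block or with a WT control mouse left out, was chosen after seeing the data. Causes of the changes were not tested. In WT mice, 60 members were called lower after median-ratio scaling (median -0.56), 37 after length-trend removal, and 7 after quantile normalization (median 0.000067). Beside these, 22.5%, 22.5%, and 20.1% of all genes tested were called lower. When only the groups compared were fitted, 9 members were called lower. A count of 1 member was called higher in WT mice with a pseudocount of 1, the replicate block, both block and length-trend removal, or the limit of 10 FPKM. In Cfb-/- mice, 17 were called lower after median-ratio scaling (median -0.37, with 1 higher) and 39 after length-trend removal, beside 14.1% and 18.3%. With this removal and the block 32 were called lower, with the block alone 6, and when only those groups were fitted 6. At the limit of 10 FPKM 1 was called higher. Counts from the block, from the compared groups alone, and from other pseudocounts or limits stand without the share of all tested genes. They are therefore not read as results about the members. Between genotypes in control mice the median was -0.05 after quantile normalization (-0.053) and after length-trend removal with or without the block (-0.050), and for the interaction it was -0.030 after the latter. After median-ratio scaling, the median between genotypes in control mice was -0.38.

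When 1 mouse was left out, members called lower ranged from 4 to 60 in WT and from 0 to 2 in Cfb-/- mice, and those called higher from 1 to 2 in both. The medians ranged from -0.46 to -0.15 in WT mice, from -0.17 to -0.06 in Cfb-/- mice, from -0.48 to -0.13 between genotypes in control mice (0 to 36 called lower), and from 0.015 to 0.36 for the interaction. With length-trend removal, leaving out WT control mouse 1, 2, or 3 gave 36, 15, or 28 members called lower in WT mice (beside 21.1%, 16.3%, or 19.7% of all tested genes) and 1 higher without mouse 2 or 3, medians between genotypes of -0.10, -0.0069, and -0.074, and interaction medians of -0.072 and -0.033 without mouse 2 or 3.

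Single genes changed direction. After quantile normalization, WT values became 0.12 for Cox8a, 0.26 for Atp5b, and 0.00027 for Uqcrc1, and Cfb-/- values became 0.17 for Cox8a, 0.12 for Atp5e, 0.17 for Atp5b, 0.036 for Uqcrc1, and -0.12 for Ppargc1a. In WT mice, Ppargc1a was at -0.047 after length-trend removal, -0.065 with the block as well, and -0.0078, -0.087, and -0.046 without WT control mouse 1, 2, or 3. In Cfb-/- mice, Ppargc1a was at -0.064 after median-ratio scaling, -0.15 after length-trend removal, and -0.17 with the block as well, and Ndufa12 was at -0.24, -0.12, and -0.048. Leaving out 1 mouse gave -0.13 to 0.19 for Ndufa12 and -0.20 to 0.042 for Atp5e in Cfb-/- mice.

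Same-numbered mice of different groups share only a number. Their deviations correlated with r from -0.39 to 0.24 over 19 pairs, of which 3 were over 0.1, and the highest r was with the same number in 5 of 38 cases. With a replicate block, 31 members were called lower in WT mice, a count given without the share of all tested genes. Depth is unknown, so what counting error adds cannot be given.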
